A study of Rattus norvegicus with 12 samples.

Results

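Cadherins are calcium-dependent adhesion proteins that join neighbouring cells. Classical cadherins bind the same or a related cadherin on the next cell through their outer repeats and hold the actin skeleton through catenins on the inside, and in skin they keep keratinocytes, fibroblasts and endothelial cells in contact. Protocadherins are a larger branch with different inner tails, best known from neurons, where combinations of clustered protocadherins mark single cells. Several of their genes, Cdh13 among them, have very long introns, while the clustered protocadherins carry large exons in tandem.

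The circles described here are the extrachromosomal circular DNAs (eccDNA) annotated to an exon or intron of a gene whose symbol begins with Cdh, Cdhr, Pcdh, Pcdha, Pcdhb, Pcdhga, Pcdhgb or Pcdhgc followed by a number. The rule found 481 of 228353 listed eccDNA, or 481 of 83890 circles that lay in genes, and they fell in 43 of 14890 genes with such a circle. The data came from Circle-seq, in which linear DNA is digested and the remaining circles are sequenced, on back skin of wild-type (WT) SD rats. There were 4 libraries in each of 3 groups. Control skin was untreated. Irradiated skin received 5 Gy of electron beam per week and was sampled at day 7 following 2 fractions (group 5 Gy x2) or 4 fractions (group 5 Gy x4). The sampling time of the controls is not in the labels, and total dose and time cannot be told apart. Separate animals are not stated either, so a p-value reflects library-to-library spread, part of which may be technical. Bulk skin was used, and a count of circles in a gene says nothing of its expression, so neither the tissue nor a cell type could be checked against marker genes.

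A circle was counted in a library when at least 1 supporting read (a read or read pair that spans the junction) was listed there, and a circle found in several libraries was counted once in each. Supporting reads ranged from 35525 to 404815 per library and genic circles from 1350 to 17285. The sequencing depth behind them is unknown. The reads are amplified copies without molecular identifiers, so intervals and limits given for counts cover counting error only. Both comparisons with control use the same 4 control libraries.

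The number of cadherin and protocadherin circles per library was higher after irradiation, in step with all circles in genes. Replicates 1 to 4 of control held 10, 21, 30 and 8 family circles. Those of 5 Gy x2 held 42, 64, 55 and 11, and those of 5 Gy x4 held 40, 95, 104 and 42. Every 5 Gy x4 library lay above every control library, whereas replicate 4 of 5 Gy x2 lay among the controls. The means were 17.25 ± 10.2 (SD, n = 4), 43.0 ± 23.2 and 70.25 ± 34.0. The 5 Gy x2 mean was 2.49 times that of control, against 2.84 times for all genic circles. The 5 Gy x4 mean was 4.07 times that of control, against 4.72 times for all genic circles. Among family circles with at least 5 supporting reads it was 2.65 times, and the matching fold of all genic circles is not given. The 5 Gy x4 mean was 1.63 times the 5 Gy x2 mean, against 1.66 times. No p is given for these sums, since the genes were chosen with results of these data known.

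**Figure D1:**
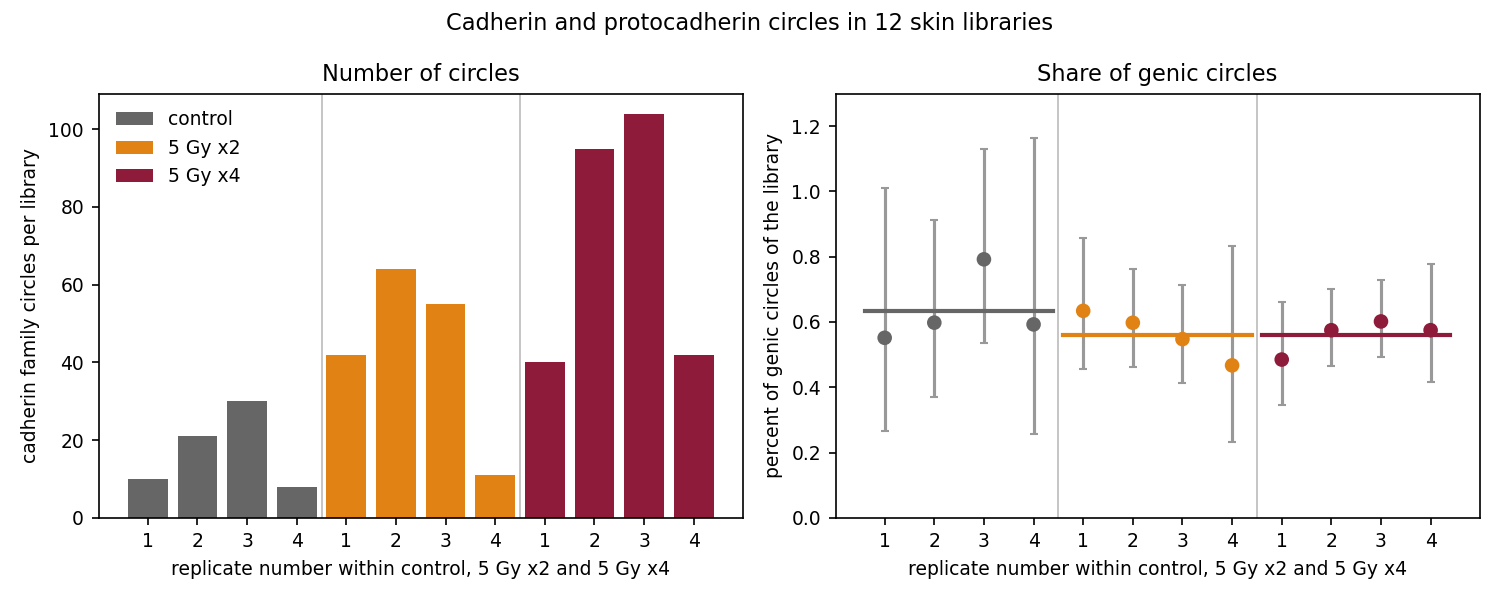
Left, bars give the number of cadherin and protocadherin circles in each of 12 libraries, grouped as control, 5 Gy x2 and 5 Gy x4. Right, points give the same circles as a percent of the genic circles of the library, with exact (Clopper-Pearson) 95% intervals for counting error and the group mean as a line; the bars differ between groups while the points of the 3 groups overlap.

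As a share of genic circles the family did not separate the groups. Control libraries had shares of 0.552%, 0.598%, 0.792% and 0.593%. Shares were 0.634%, 0.598%, 0.548% and 0.467% after 2 fractions, and 0.485%, 0.575%, 0.602% and 0.575% after 4 fractions. All 3 ranges overlapped. The mean share minus that of control was −0.0719 percentage points after 2 fractions and −0.0744 after 4 fractions, both within the pooled SDs of 0.0917 and 0.0842. Without control replicate 3 these differences were −0.0191 and −0.0216. Exact (Clopper-Pearson) 95% intervals show how little a small library can resolve: that of control replicate 4 ran from 0.256% to 1.16%, and that of 5 Gy x4 replicate 3 from 0.492% to 0.729%. Counted as supporting reads, the family share was 0.657% ± 0.193 in control, 0.501% ± 0.143 after 2 fractions and 0.465% ± 0.135 after 4 fractions (SD, n = 4 each). The read share of 5 Gy x4 minus that of control was −0.192 percentage points, against a pooled SD of 0.166, and their ranges overlapped.

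Circles were spread unevenly over the 43 genes. Cdh13 alone held 24.7% of the 522 calls (a call is a circle present in a library), and the 12 genes with at least 12 calls held 75.9%. At the other end, 9 genes had 1 call each. Family circles were found in 21 genes in control, 30 after 2 fractions and 37 after 4 fractions. Per library, 10.75 ± 5.19 genes had a circle in control, 17.5 ± 5.69 after 2 fractions and 23.5 ± 5.26 after 4 fractions (SD, n = 4 each). Family calls numbered 69, 172 and 281 in these groups, and more circles reach more genes. Genes were not counted at equal numbers of circles, so a spread to further genes was not tested. Genes differ in length and no lengths of the build used were at hand, so the numbers of different genes are listed without a rate per length.

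**Figure D2:**
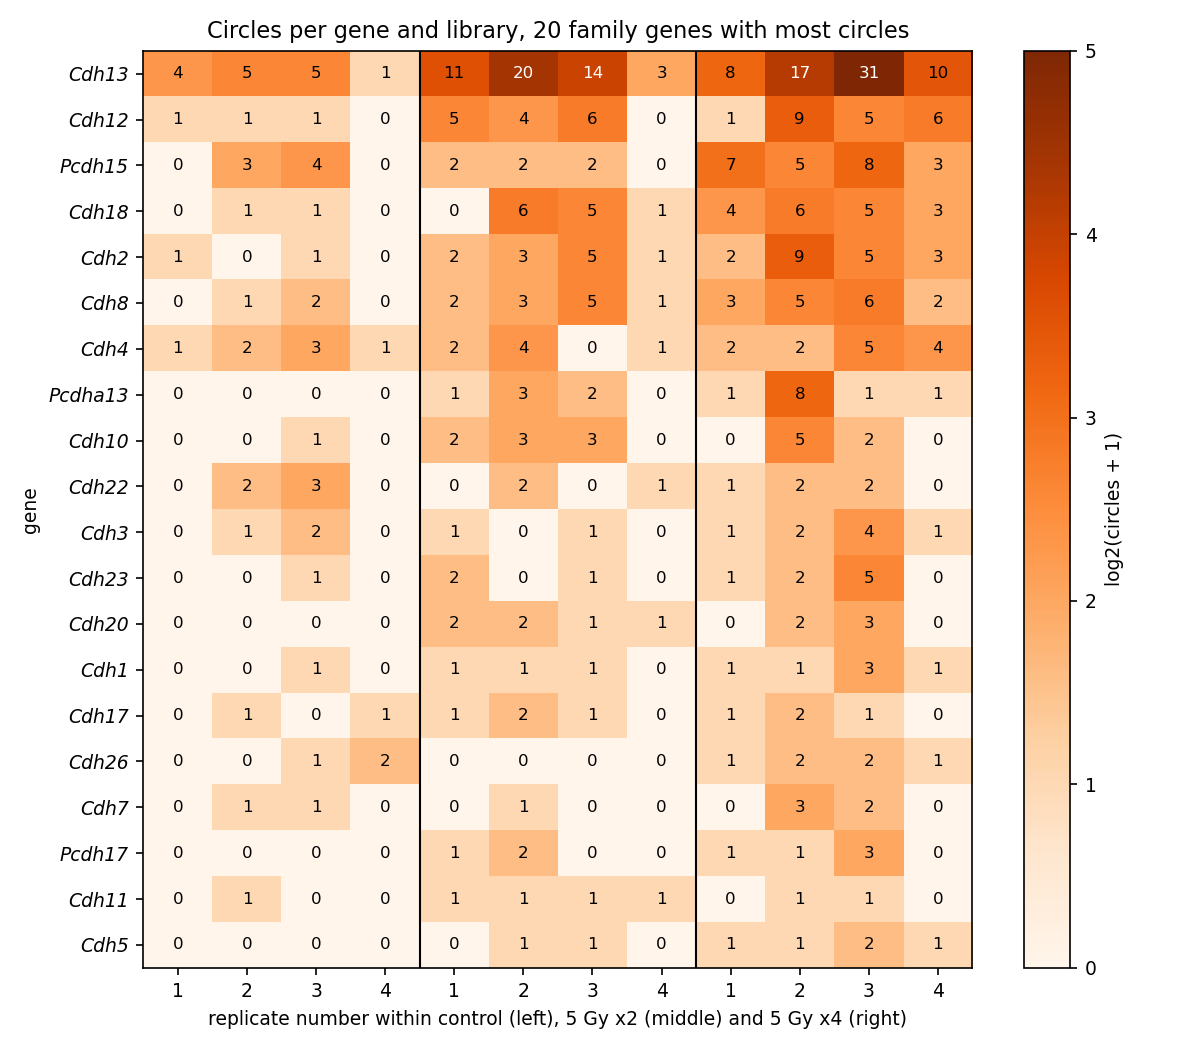
Numbers and colour give the circles of each of the 20 family genes with the most circles (rows) in each library (columns, 4 per group); colour is on a log2(circles + 1) scale. Cdh13, in the top row, has circles in all 12 libraries, and the control columns hold most of the zeros.

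Changes of single genes were tested with edgeR's quasi-likelihood test on the number of circles per gene, over 2039 genes with at least 12 calls. Counts were scaled to the sum of circles over all genes of the library, where a circle annotated to 2 genes counts in both. In control replicate 1 this sum was 1897, beside 1813 genic circles. A gene's log2 fold change is thus a change of its share of this sum, for short called its share of genic circles. Of the 43 family genes 12 could be tested, and none passed an adjusted p of 0.05 in any of the 3 comparisons. Over all tested genes, 8 (0.392%) passed in 5 Gy x2 against control, all lower in share, and 26 (1.28%) in 5 Gy x4 against control, 1 higher and 25 lower. None (0%) passed in 5 Gy x4 against 5 Gy x2, where 88 genes had an unadjusted p under 0.05 and DESeq2 also called 0. With background rates this low, 0 calls among 12 genes does not set the family apart. The direction of the background calls rested on the scaling: TMM factors gave 0 calls for 5 Gy x2 and 2 higher and 1 lower for 5 Gy x4, and DESeq2 gave 3 and 7 calls, all higher. They also rested on single libraries: in 5 Gy x2 against control there were 5 calls without control replicate 2, 3 without control replicate 3, 2 without control replicate 4, 5 without 5 Gy x2 replicate 1 and 2 without 5 Gy x2 replicate 3. In 5 Gy x4 against control there were 12 without control replicate 2 and 4 without control replicate 4. No family gene was called in any of these fits.

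The 12 family genes had a median log2 fold change of 0.27 in 5 Gy x2 against control, with 8 above 0, beside 0.08 over all 2039 genes, of which 54.2% were above 0. In 5 Gy x4 against control the median was 0.34, with 7 above 0, beside 0.21 and 55.9%. Without Pcdha13, whose fitted value has no control circle behind it, the median of the other 11 genes was 0.18 in both comparisons. Genes were admitted by calls summed over all libraries, and most calls came from irradiated skin. A gene with few control calls could thus be admitted by its irradiated libraries, which can favour values above 0. Without 5 Gy x4 replicate 2, only 7 family genes could be tested. These medians and counts above 0 therefore cannot show a change of the family. Unadjusted p-values under 0.05 were reached by 2 family genes in the first comparison (Cdh22 and Pcdh15) and by 1 in the second (Cdh22). The smallest adjusted p of the 12 genes in edgeR's test was 0.443 after 2 fractions and 0.352 after 4 fractions.

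**Figure D3:**
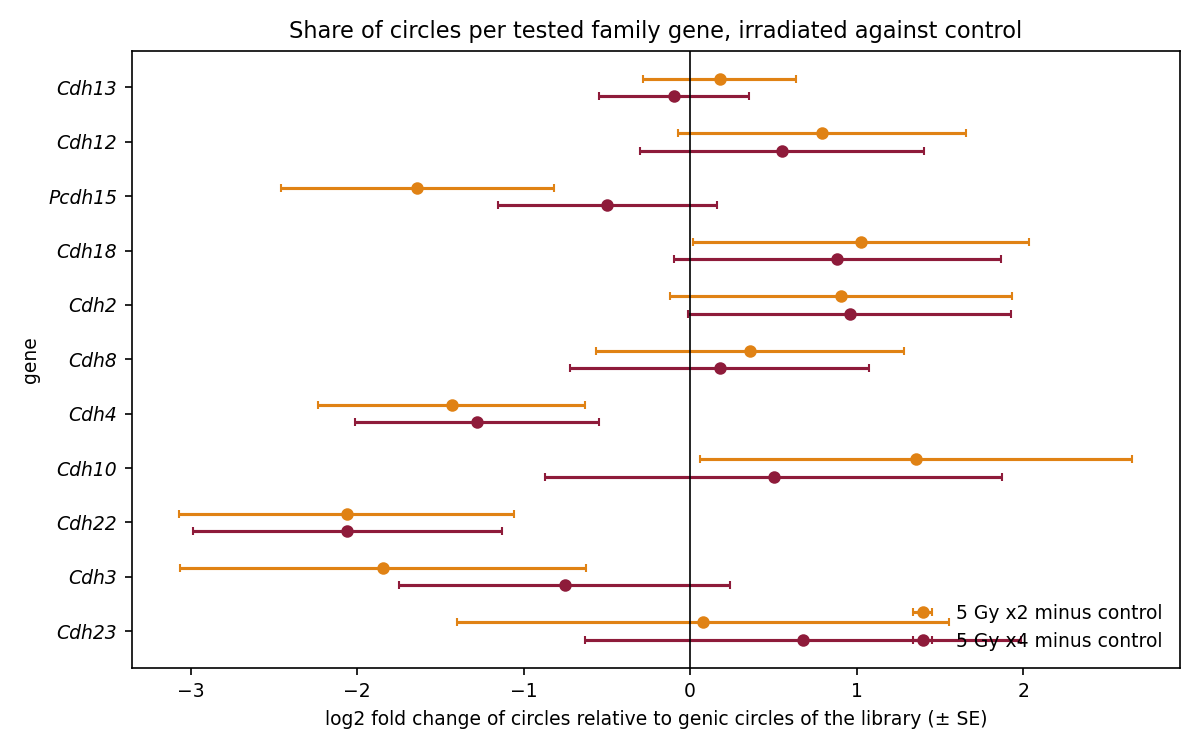
Points give log2 fold changes of the share of genic circles for the tested family genes. Orange is 5 Gy x2 against control and dark red is 5 Gy x4 against control. Bars are ± 1 SE computed from edgeR's F values. Pcdha13, which had no control circle and so no measured fold, is left out. Cdh13 has the narrowest bars, and none of the genes passed an adjusted p of 0.05.

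Among classical type I cadherins, the catenin-bound proteins of adherens junctions, circles were found in all 5 genes and 87 calls were made. Their sum was 3, 4, 7 and 2 in control, 7, 9, 7 and 2 after 2 fractions, and 6, 14, 17 and 9 after 4 fractions. Per 1000 genic circles this was 1.14 to 1.85 in control, 0.697 to 1.06 after 2 fractions and 0.727 to 1.23 after 4 fractions. The 5 Gy x2 range lay below the control range and the 5 Gy x4 range overlapped it. No test is given for this sum.

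Cdh1 encodes E-cadherin, the main adherens junction protein of the epidermis. It had 10 calls in 8 libraries: 0, 0, 1 and 0 in control, 1, 1, 1 and 0 after 2 fractions, and 1, 1, 3 and 1 after 4 fractions. These calls were too few for the test. Cdh3 encodes P-cadherin of basal keratinocytes and hair follicles, and lies next to Cdh1 on chromosome 19. It had 0, 1, 2 and 0 circles in control, 1, 0, 1 and 0 after 2 fractions, and 1, 2, 4 and 1 after 4 fractions. Its log2 fold changes were −1.84 ± 1.22 (SE, adjusted p = 0.530) after 2 fractions and −0.75 ± 1.00 (adjusted p = 0.816) after 4 fractions, and the second turned positive with TMM factors (0.15). With 3 calls in control the ratio of shares after 4 fractions was 0.565, with an exact 95% interval for counting error (binomial, given the total number of calls) from 0.136 to 3.31.

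Cdh2 encodes N-cadherin of neurons, muscle and mesenchyme. Its counts were 1, 0, 1 and 0 in control, 2, 3, 5 and 1 after 2 fractions, and 2, 9, 5 and 3 after 4 fractions. Every 5 Gy x4 library exceeded every control library in number, but relative to genic circles the log2 fold change was 0.96 ± 0.97 (SE, adjusted p = 0.733). In 5 Gy x2 it was 0.91 ± 1.02 (adjusted p = 0.729). These values were 0.41 and 0.36 without control replicate 2, 1.62 and 1.56 without control replicate 1, and 2.20 and 1.98 in DESeq2, and none was called. Control held 2 calls, and the ratio of shares after 4 fractions, 2.01, had an exact 95% interval from 0.486 to 17.8.

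Cdh4 encodes R-cadherin, first known from retina. Its counts were 1, 2, 3 and 1 in control, 2, 4, 0 and 1 after 2 fractions, and 2, 2, 5 and 4 after 4 fractions. Besides Cdh13 it was the only family gene with a circle in every control library. The log2 fold change was −1.43 ± 0.80 (SE, adjusted p = 0.468) after 2 fractions and −1.28 ± 0.73 (adjusted p = 0.380) after 4 fractions. The remaining type I gene, Cdh15 (M-cadherin of muscle), had 5 calls, 3 of them in control and none after 4 fractions.

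Type II cadherins, most of which are known from neurons, held 179 calls in all 13 listed genes. The sum per library was 1, 7, 10 and 2 in control, 15, 24, 23 and 6 after 2 fractions, and 11, 36, 30 and 14 after 4 fractions. Per 1000 genic circles the ranges were 0.552 to 2.64, 2.24 to 2.55 and 1.33 to 2.18. Control replicate 3 lay above all 5 Gy x2 libraries and the other controls below them. Cdh12, a brain cadherin, led with 39 calls: 1, 1, 1 and 0 in control, 5, 4, 6 and 0 after 2 fractions, and 1, 9, 5 and 6 after 4 fractions. Its log2 fold change was 0.79 ± 0.87 (SE, adjusted p = 0.729) after 2 fractions and 0.55 ± 0.85 (adjusted p = 0.860) after 4 fractions.

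Cdh18, which lies with Cdh12, Cdh10, Cdh9 and Cdh6 on chromosome 2, had 0, 1, 1 and 0 circles in control, 0, 6, 5 and 1 after 2 fractions, and 4, 6, 5 and 3 after 4 fractions. All 4 libraries of 5 Gy x4 exceeded all controls in number, while the change of share was 0.88 ± 0.98 on the log2 scale (SE, adjusted p = 0.766). Cdh8 had 0, 1, 2 and 0 in control, 2, 3, 5 and 1 after 2 fractions, and 3, 5, 6 and 2 after 4 fractions. Its change of share was 0.36 ± 0.92 (adjusted p = 0.909) and 0.18 ± 0.90 (adjusted p = 0.928). Cdh10 was uneven within groups: its only control circle was in replicate 3, 5 Gy x2 held 2, 3, 3 and 0, and 5 Gy x4 held 0, 5, 2 and 0. With 1 control call its ratio of shares after 2 fractions was 2.82, with an exact 95% interval from 0.377 to 125.

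Cdh22 gave the lowest unadjusted p of the family. It had 0, 2, 3 and 0 circles in control, 0, 2, 0 and 1 after 2 fractions, and 1, 2, 2 and 0 after 4 fractions. All control circles were in 2 of the 4 libraries. The log2 fold change was −2.06 ± 1.0 (SE, adjusted p = 0.443) after 2 fractions and −2.06 ± 0.93 (adjusted p = 0.352) after 4 fractions, by edgeR's quasi-likelihood test. Of its 10 circles, 5 were also annotated to an uncharacterised locus that overlaps the gene, and 4 of these lay on the same short stretch of an intron, as described with the recurrent circles.

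The vascular and stromal type II cadherins had few circles. Cdh5 encodes VE-cadherin of endothelial junctions, and its 7 calls all came from irradiated skin: 0, 1, 1 and 0 after 2 fractions and 1, 1, 2 and 1 after 4 fractions. Cdh11, the cadherin of fibroblasts and bone-forming cells, also had 7 calls, with 0, 1, 0 and 0 in control, 1 in each 5 Gy x2 library, and 0, 1, 1 and 0 after 4 fractions. Cdh20 had 11 calls, none in control, with 2, 2, 1 and 1 after 2 fractions and 0, 2, 3 and 0 after 4 fractions. Cdh7 had 8, of which 2 were in control and 1 after 2 fractions. The others were Cdh9 with 6 calls, Cdh19 and Cdh6 with 4 each and Cdh24 with 2.

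Cdh13 encodes T-cadherin, which is held at the membrane by a lipid anchor, lacks an inner tail and binds adiponectin. With 129 calls on 117 circles it ranked 6 among all 14890 genes and was the only family gene with circles in all 12 libraries. Control libraries held 4, 5, 5 and 1, 5 Gy x2 libraries 11, 20, 14 and 3, and 5 Gy x4 libraries 8, 17, 31 and 10. All 5 Gy x4 libraries lay above all controls, and the mean was 4.40 times that of control. Per 1000 genic circles Cdh13 had 1.42 ± 0.603 in control, 1.55 ± 0.267 after 2 fractions and 1.29 ± 0.379 after 4 fractions (SD, n = 4 each). The log2 fold change of the share was 0.18 ± 0.46 (SE, adjusted p = 0.909) after 2 fractions and −0.10 ± 0.45 (adjusted p = 0.928) after 4 fractions. With TMM factors these were 0.85 and 0.83 and in DESeq2 1.21 and 1.09, none of them called. Without Cdh13, the family share was 0.491% ± 0.137 in control, 0.407% ± 0.0525 after 2 fractions and 0.430% ± 0.0349 after 4 fractions.

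The Cdh13 circles lay between chr19:50853109-51960554 (rn6), a span of 1107 kb, with a median gap of 6.24 kb and a largest gap of 38.5 kb between neighbouring circles. The span is that of the circles themselves, and the ends of the gene were not used here. Cut into 4 stretches of equal length, the span held 37, 29, 28 and 35 calls from low to high coordinates. Control skin had 4, 1, 3 and 7 calls in these stretches, 5 Gy x2 had 12, 12, 9 and 15, and 5 Gy x4 had 21, 16, 16 and 13. All but 2 of the 117 circles were annotated as intronic.

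**Figure D4:**
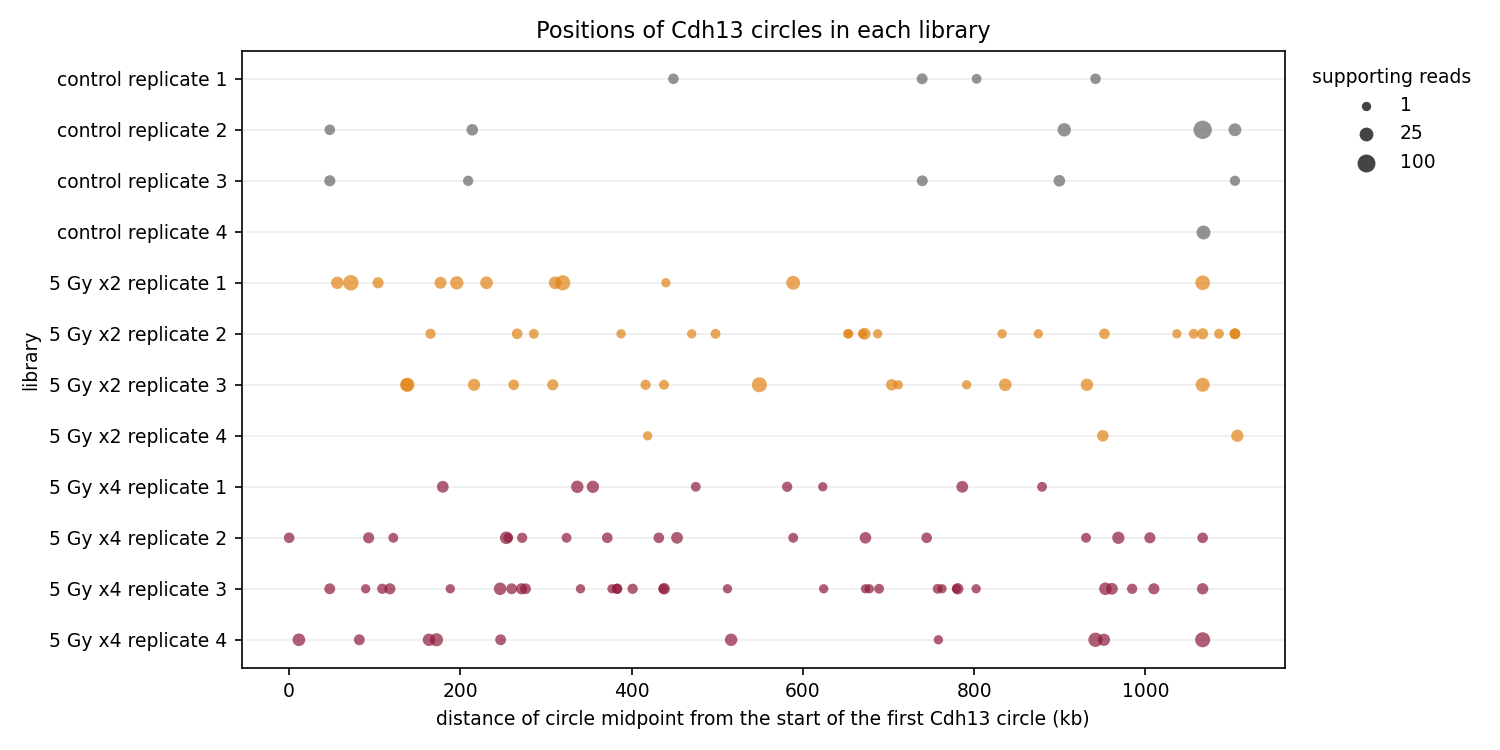
Each point is a Cdh13 circle in a library (rows), placed by the distance of its midpoint from the start of the first Cdh13 circle in kb, with point size growing with its supporting reads. Each group has points in all 4 stretches of equal length of the 1107 kb span, and the circle near the right end that recurs in 8 libraries forms a vertical line.

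Other cadherins outside the classical types were sparser. Cdh23, which with Pcdh15 forms the tip links of inner ear hair cells, had 12 calls: 0, 0, 1 and 0 in control, 2, 0, 1 and 0 after 2 fractions, and 1, 2, 5 and 0 after 4 fractions. Its log2 fold changes were 0.08 ± 1.48 (SE, adjusted p = 0.973) and 0.68 ± 1.31 (adjusted p = 0.887). Of its 9 circles, 5 were also annotated to Vsir or to another gene that overlaps it. Cdh17, the intestinal cadherin, had 10 calls in 8 libraries, 2 in control and 4 in each of the irradiated groups. Cdh26 had 9 calls, 3 in control, none after 2 fractions and 6 after 4 fractions, and Cdh16, known from kidney, had 1. The cadherin-related genes Cdhr2 and Cdhr5, whose proteins link the tips of microvilli, had 4 and 2 calls, and Cdhr1 of photoreceptors had 2.

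Pcdh15 led the non-clustered protocadherins with 36 calls. Control libraries held 0, 3, 4 and 0, 5 Gy x2 libraries 2, 2, 2 and 0, and 5 Gy x4 libraries 7, 5, 8 and 3. The control circles came from 2 libraries, and the highest control, with 4 circles, exceeded 1 library of 5 Gy x4, with 3. The log2 fold change was −1.64 ± 0.82 (SE, adjusted p = 0.443) after 2 fractions. In 5 Gy x4 it was −0.50 ± 0.66 (adjusted p = 0.816), and it turned to 0.45 with TMM factors. Pcdh17 had 8 calls, none in control. The rest were Pcdh12, Pcdh19 and Pcdh7 with 3 calls each, Pcdh18 and Pcdh20 with 2 each, and Pcdh10 and Pcdh1 with 1 each. Pcdh1, a protocadherin of epithelia including epidermis, had its intronic circle of 333 bp in replicate 1 of 5 Gy x4.

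The clustered protocadherins held 28 calls in 8 genes, 17 of them in Pcdha13. The circles given to Pcdha13 spread over 228 kb of chromosome 18, in a cluster whose genes share their last exons and have a first exon each. Control libraries held none, 5 Gy x2 libraries 1, 3, 2 and 0, and 5 Gy x4 libraries 1, 8, 1 and 1. Replicate 2 of 5 Gy x4 thus held most of that group's circles. No control circle among 10463 genic circles allows a share of up to 0.287 per 1000, above the pooled 0.202 per 1000 after 2 fractions and 0.223 after 4 fractions, so no difference was detectable at this depth (edgeR adjusted p = 0.468 and 0.367). The same held for each of the 22 family genes without a control circle, which had 79 calls between them. Pcdhgc3 had 5 calls, 3 of them in control. Pcdhb2, Pcdhb7, Pcdhb21, Pcdhga2, Pcdhga4 and Pcdhgb5 had 1 circle each, and all of these 6 were exonic and came from irradiated skin. The irradiated groups held 29731 and 49366 genic circles, against 10463 in control. Exons of this cluster resemble each other closely, so the gene given to such a circle is uncertain.

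Most family circles were short and intronic. Lengths are those of the list entries, also where an entry joined calls of other lengths in single libraries. The Cdh4 entry of 1814 bp, for example, joined calls of 808 to 1701 bp and counted as 1814 bp in all 4 control libraries. Median length was 363 bp, with the middle of the distribution between 334 and 385 bp (interquartile range) and a range of 21 to 2724 bp, beside a median of 359 bp for other genic circles. The share of family circles of 330 to under 420 bp was 20%, 38.1%, 40% and 25% in control, 73.8%, 70.3%, 70.9% and 45.5% after 2 fractions, and 67.5%, 78.9%, 66.3% and 61.9% after 4 fractions. Every irradiated library lay above every control library. The difference from control was 34.3 percentage points after 2 fractions and 37.9 after 4 fractions, each with p = 0.0286 in a two-sided exact permutation test, the smallest that 4 libraries against 4 allow, and 0.0857 after Benjamini-Hochberg adjustment over 9 tests. The irradiated groups differed by 3.55 points (exact p = 0.743). Other genic circles had shares of 31.5% ± 11.6, 65.8% ± 4.51 and 67.4% ± 2.54 (SD, n = 4 each), close to those of the family in the same groups.

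The mean shares of shorter classes were smaller after irradiation. Circles under 150 bp were 13% ± 4.84 of family circles in control, 4.49% ± 3.31 after 2 fractions and 1.70% ± 1.16 after 4 fractions. Those of 250 to under 330 bp were 18.7% ± 15.9, 5.29% ± 3.40 and 6.61% ± 2.45 (SD, n = 4 each). The median length per library averaged 322 ± 30.0, 370 ± 3.01 and 361 ± 8.75 bp (SD, n = 4 each). The difference from control was 47.75 bp after 2 fractions (exact permutation p = 0.0286, adjusted 0.0857) and 38.5 bp after 4 fractions (exact p = 0.0857, adjusted 0.154). Among circles that the authors labelled hconf, both differences turned negative, to −0.75 and −8.63 bp.

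**Figure D5:**
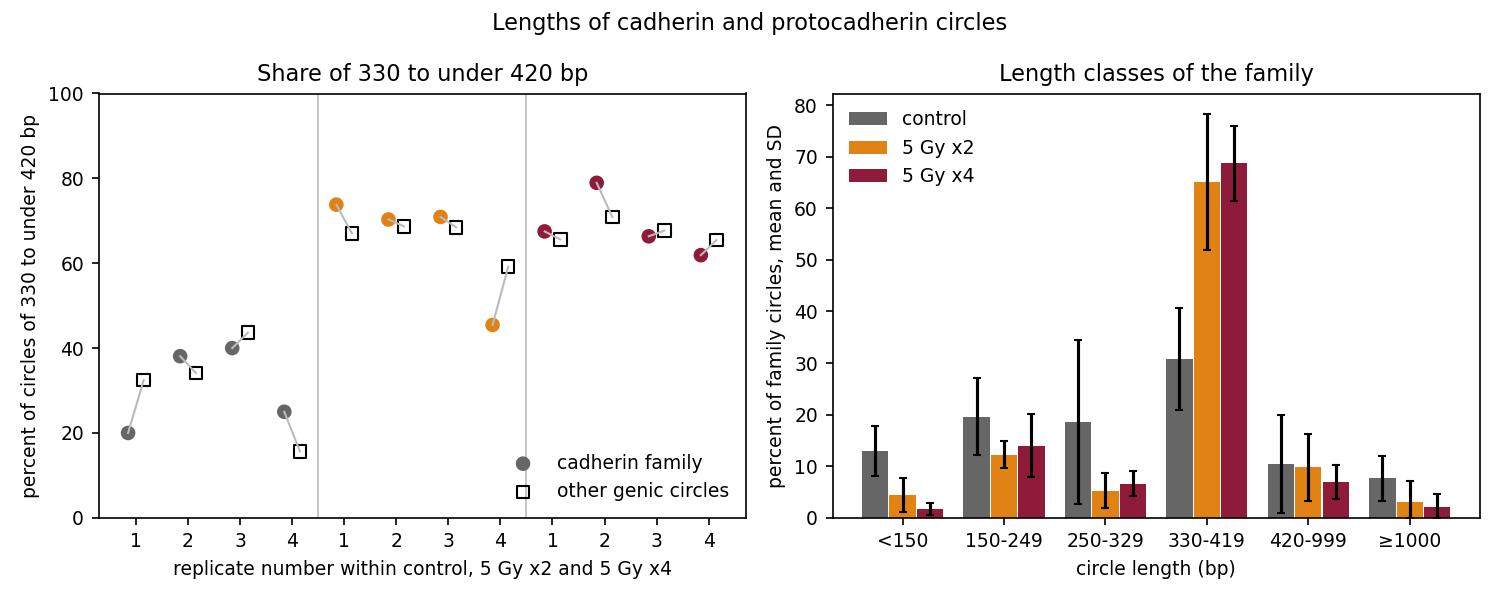
Left, the percent of circles of 330 to under 420 bp in each library, filled points for cadherin and protocadherin circles and open squares for all other genic circles of the same library; control libraries lie at 40% or below and irradiated ones at 45.5% or above for the family. Right, bars give the mean percent of family circles in 6 length classes for each group, with SD over 4 libraries.

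Within a library, no difference in length between family circles and other genic circles was detected on average. The mean difference between them over 12 libraries was −0.05 percentage points in the share of 330 to under 420 bp and −0.29 bp in median length (permutation p = 0.983 for both over all sign changes, adjusted 0.983). SDs of these differences were 7.36 points and 20.5 bp, so the test cannot show that the lengths are the same. By group, the difference in median length was −10.1 ± 34.8 bp in control, 8.63 ± 4.23 after 2 fractions and 0.63 ± 8.35 after 4 fractions (SD). After 2 fractions it ran from 3.5 to 13 bp. The groups were not tested apart. The share of circles with at least 5 supporting reads was 3.18 points higher in the family (permutation p = 0.105, adjusted 0.210), and higher in 8 of 12 libraries.

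Exonic circles were rarer in the family than among other genic circles. They made up 6.95% of family circles and 11.6% of other genic circles on average, a difference of −4.61 percentage points (SD 3.24), and the family was lower in 11 of 12 libraries (two-sided permutation p = 0.000977, adjusted 0.00391 over 4 tests). The difference depended on which genes served as the comparison: against other circles in genes with at least 12 calls it was 1.40 points the other way (adjusted p = 0.560). It was also 1.68 points the other way among circles with the label hconf (adjusted p = 0.840), a label that the deposited table does not define. The exonic share of family circles was 3.21% ± 4.49 in control, 9.97% ± 2.40 after 2 fractions and 7.67% ± 3.50 after 4 fractions (SD, n = 4 each). Other genic circles had exonic shares of 9.21% ± 1.93, 12.4% ± 0.929 and 13.1% ± 0.560 in the same groups. For the family the differences from control had exact permutation p = 0.0857 and 0.171 (adjusted 0.154 and 0.220).

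Of the 481 circles, 42 were exonic, and their place in the family was uneven. Protocadherins had 16 exonic circles of 86 (18.6%) and the other family genes 26 of 395 (6.58%). In the clustered protocadherins 10 of 28 were exonic and in the cadherin-related genes 5 of 7, against 8 of 172 in type II cadherins and 4 of 141 in Cdh13, Cdh23 and the other cadherins grouped with them. These are counts of circles, which share libraries and genes, and no test is attached.

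Few circles were found in more than 1 library. Of the 481 circles 458 were in a single library and 23 (4.78%) in several, beside 4.15% of other genic circles. Pairs of libraries shared 0 to 5 family circles, with a median of 1 both within and between groups. The 6 circles present in at least 3 libraries held 19.4% of the 4679 supporting reads of the family.

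The circle found most widely lay in an intron of Cdh13, at chr19:51919725-51920022 (rn6), and was 298 bp long. It was present in 8 libraries: 0, 112, 0 and 26 supporting reads in control, 35, 6, 27 and 0 after 2 fractions, and 0, 4, 7 and 41 after 4 fractions. It was found in 2, 3 and 3 libraries of the groups. Its starts in the single libraries lay within 11 bp of each other and its ends within 8 bp. A second Cdh13 circle of 134 bp, at chr19:51957510-51957643, was in 3 libraries, 2 of them control, with a common start and ends within 24 bp.

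The Cdh4 circle at chr3:175146601-175148414 was listed at 1814 bp and had the most reads of the family, 303. It was present in all 4 control libraries, with 40, 28, 30 and 46 reads. In 5 Gy x2 it was in replicate 2 alone (30 reads), and after 4 fractions in replicates 3 and 4 (21 and 108 reads). Its entry joined calls of 808 to 1701 bp whose starts differed by up to 360 bp and whose ends differed by up to 828 bp, so the libraries held different circles from 1 intronic stretch. Together with 3 shorter overlapping entries, this stretch had circles in 8 libraries, including all 4 controls, 2 of 5 Gy x2 and 2 of 5 Gy x4.

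Other circles in 4 libraries were intronic as well. That of Cdh17 at chr5:25432183-25432550 (368 bp) was in control replicates 2 and 4 (49 and 38 reads) and 5 Gy x2 replicates 1 and 3 (31 and 39), and in no 5 Gy x4 library; the entry joined calls of 280 to 368 bp. That of Cdh23 at chr20:29972331-29972838 (508 bp) was in control replicate 3 (28 reads), 5 Gy x2 replicates 1 and 3 (53 and 13) and 5 Gy x4 replicate 3 (12). It joined calls of 305 to 478 bp, whose starts differed by up to 151 bp and ends by up to 52 bp. That of Cdh2 at chr18:8268047-8269095 (1049 bp) was in 5 Gy x2 replicates 3 and 4 (20 and 2 reads) and 5 Gy x4 replicates 3 and 4 (18 and 22), and in no control library. It joined 4 different calls of 503 to 891 bp, whose starts differed by up to 241 bp and ends by up to 305 bp. For these entries, as for Cdh4, presence in several libraries means overlapping and not identical circles. A 354 bp circle of Cdh3 at chr19:38678753-38679106 recurred in 5 Gy x4 replicates 2 and 4 (12 and 56 reads) with ends within 1 bp.

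In Cdh22, 4 overlapping circles covered 743 bp at chr3:161815218-161815960. They came from control replicates 2 and 3 (28 and 107 reads) and 5 Gy x2 replicates 2 and 4 (1 and 17 reads). No 5 Gy x4 library had a circle there. Across the family, 19 such overlapping groups held 42 of the 481 circles. The longest entries were in introns of Cdh18 (2724 bp, chr2:74632333-74635056, 5 reads) and Cdh4 (above), followed by Cdh13 (1113 bp, chr19:51541487-51542599, 2 reads), and 4 entries in all reached 1000 bp. Of these the Cdh2 entry was made of calls of at most 891 bp.

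Genes that act with cadherins were examined from lists of 4 kinds, and none of their tested genes passed an adjusted p of 0.05 in any comparison. Catenins and other cytoplasmic partners had circles in 14 of 17 genes and 193 calls, led by Ctnnd2 (85 calls, delta-catenin) and Plekha7 (18 calls, an adherens junction protein). Ctnnd2 had log2 fold changes of 0.49 ± 0.61 (SE, adjusted p = 0.801) and 0.60 ± 0.57 (adjusted p = 0.683) in edgeR's test. Of 5 tested genes 4 were above 0 after 2 fractions and all 5 after 4 fractions, beside 54.2% and 55.9% of all tested genes. Plekha7 had no control circle and so no measured fold. Pkp4, Vcl and Ctnna1, with 2, 1 and 1 control calls, had values smaller than their SEs in both comparisons. A count of 5 such genes, admitted by calls summed over all libraries, does not show a common rise.

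Large and seven-pass cadherins with calsyntenins had circles in 11 of 12 genes and 142 calls, led by Fat3 (61 calls) and Fat1 (15), very large cadherins of tissue polarity. Fat3 had log2 fold changes of −0.65 ± 0.63 (SE, adjusted p = 0.715) and −0.22 ± 0.56 (adjusted p = 0.923). Per 1000 genic circles this list had 1.37 ± 0.955 in control, 1.17 ± 0.299 after 2 fractions and 1.79 ± 0.198 after 4 fractions (SD, n = 4 each), and the 5 Gy x4 values lay within the control range of 0 to 2.21. Desmosomal cadherins, which anchor keratin filaments in epidermis, had circles in 6 of 7 genes but 31 calls only, led by Dsc3 (11) and Dsg1 (6), and none could be tested. Regulators of Cdh1 transcription had 27 calls in 5 of 6 genes, led by Zeb2 (15) and Twist2 (6), and Zeb2 was the tested gene, with log2 fold changes of 0.73 ± 1.40 (SE, adjusted p = 0.859) and 0.84 ± 1.32 (adjusted p = 0.860).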

How the data were processed

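Per the labels' protocols, a plasmid kit enriched circular DNA, exonuclease removed linear DNA, and a transposase kit made the libraries. The authors deposited, for each of 12 libraries, whole-number counts of supporting reads per circle over 1 list of 228353 eccDNA, not normalized, and annotation tables with positions, genes and total supporting counts. In 203 entries the library counts do not sum to that total. BWA, Picard, bedtools and the build rn6 are named in the submitters' processing notes; for the circle caller and for how circles were merged across libraries, a name or rule is not given in the sources used here. 8 columns of single-library values were not used. Starts are given from 1. Of the 43 gene symbols 41 matched RefSeq names.

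Circles per gene were tested in R 4.3.3 with edgeR 4.0.16 (quasi-likelihood, 3 groups of 4 in 1 fit, genes with at least 12 calls, adjusted p 0.05). Each printed SE of a log2 fold change is its absolute value divided by the square root of the F value of this test. TMM scaling had been planned. On counts simulated for 5 Gy x4 against control with no gene changed, it gave 14.6% of 2139 genes p under 0.05 and a median log2 fold change of 0.90. Library size alone gave 3.97% and 0.10. On this ground library size was used and TMM is an alternative. The counts were drawn in proportion to library size, with 1 spread for all genes (dispersion 9.8e-05). That setting favours library size, so the simulation cannot show which scaling is right for the real libraries. Its rates of recovery and false calls, given next, hold for that setting alone. With 200 genes changed (2065 tested), library size recovered 24 of 100 genes raised and 4 of 42 genes lowered by a factor of 4, with 0 false calls; TMM recovered 82 and 3, with 24 false calls. DESeq2 1.42.0 was a further alternative. Other values used Python 3.11.15, pandas 2.3.3, numpy 2.4.6 and scipy 1.17.1.

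Shares and lengths were compared by exact permutation over 70 splits, or by sign changes within libraries. Named genes were the 20 family genes with most calls, those called, those with a known role in skin, the circles in most libraries, the 3 longest and the 3 with most reads, and the top 2 of each related list; other family genes are named to account for them. The genes and lists were chosen with earlier results of these data known.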

Additional observations from a re-analysis of the deposited data

Results flagged for a closer look

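Dixon's limit at the 95% level was applied to 60 combinations of a measure and a group of 4 libraries. In 7 of them a library's gap to the nearest other exceeded it. Chance gives about 1 in 20 for continuous, normally spread values, which counts of a few circles are not. A single circle in 1 of 4 libraries passes the limit by itself, so no rate expected by chance is given. Replicate 4 of 5 Gy x2, with 2355 genic circles, stood apart in 3 values. Its share of family circles of 330 to under 420 bp was 45.45%, against 70.3% to 73.8% in the other libraries of its group. It had circles in 9 family genes, against 20 to 21. It had 0 Cdh10 circles, against 0.280 to 0.302 per 1000 genic circles.

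The other 4 values come from 0 to 4 circles each. Control replicate 3 had 0.264 per 1000 genic circles for Cdh10 and 0.264 for Cdh23, each a single circle, with 0 in the other controls. Replicate 4 of 5 Gy x4 had 0 Cdh22 circles, against 0.116 to 0.121 per 1000. Replicate 3 of 5 Gy x4 had 0.2314 Cdh3 circles per 1000, against 0.121 to 0.137.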

How the results depend on the processing

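Over 46 results and 557 alternatives, 500 stayed on their side of the threshold or, for values with no test, within the SD between replicates. Part of this was fixed beforehand, since the exact test of 3 libraries against 4 gives no p under 0.0571. SDs between replicates were also wide, so the 500 do not show that the results are stable. The family share of 5 Gy x4 minus 5 Gy x2 (−0.0025 points) changed sign in 9 of the 500, to at most 0.0463 with at least 5 reads. No family gene was called in any of 60 fits (3 comparisons under each setting). The cause of the changes below was not tested. Subsets by reads, length, label or gene part hold fewer circles, and the effect of this was not tested either. Family numbers against control were 5-fold (5 Gy x2) and 8.208-fold (5 Gy x4) for circles of 330 to under 420 bp. Other genic circles of that length were 5.50-fold and 9.21-fold. Exonic family circles, with 3 control calls behind them, were 6-fold and 7.667-fold, beside 3.66-fold and 6.44-fold for other exonic circles. Family numbers were 1.735-fold and 2.653-fold with at least 5 reads and 1.793-fold and 2.862-fold for hconf circles. Matching folds of other genic circles are not given for these last subsets. Among exonic circles the share of the family differed from control by 0.2426 and 0.1199 percentage points, and by −0.1227 between the irradiated groups. It differed by −0.1806 with at least 5 reads (5 Gy x2) and by −0.1919 counted in reads (5 Gy x4). For 5 Gy x4 minus 5 Gy x2, the exonic share became 1.52 points with at least 5 reads, and the share of 330 to under 420 bp became −11.19 points for hconf circles, −0.1206 without Cdh13 and −3.002 without 5 Gy x2 replicate 4 (leave-one-out range −3.002 to 6.449). Median length differences from control became −0.75 and −8.625 bp for hconf circles. Family minus other genic circles, without controls, was 0.2717 points (330 to under 420 bp), −3.923 points (exonic, adjusted permutation p = 0.0625) and 4.625 bp. For hconf circles it was 9.119 points, 1.68 points and 9.917 bp, and against genes with at least 12 calls 1.234 and 1.404 points.

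Genes called in 5 Gy x2 against control (8) were 0 with TMM, 3 with DESeq2, 5 with filterByExpr (15 genes tested), 4 with no filter and 5 with at least 24 calls. For 5 Gy x4 (26) they were 3, 7, 8, 9 and 17, and 13 for circles under 1000 bp. TMM moved the median log2 fold change of all genes from 0.08 to 0.72 and from 0.21 to 1.09, and DESeq2 to 1.08 and 1.33. With the replicate block there were 5 and 24 calls; deviations of same-numbered libraries correlated at −0.02 to 0.12, so the numbers were not taken as pairs. Leaving out a compared library gave 2 to 8 and 4 to 26. Without 5 Gy x2 replicate 1, 2 or 4, which enter the shared spread, 5 Gy x4 had 28. With TMM and DESeq2, the 5 Gy x4 log2 fold change of Pcdh15 became 0.4509 and 0.7772, of Cdh13 0.8323 and 1.094, and of Cdh3 0.147 and 0.4331. Leave-one-out ranges crossed 0 for Cdh23 in 5 Gy x2 (−0.4417 to 0.6407), and in 5 Gy x4 for Pcdh15 (−0.769 to 0.06585), Cdh10 (−0.01589 to 3.292), Cdh13 (−0.375 to 0.07481) and Cdh8 (−0.08611 to 1.051). Too few circles for the test were found in 31 of 43 family genes, and the reason for this was not tested.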

Other observations

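Circles just outside family genes were not part of the counts. Within 2 kb of a family gene, 21 circles were annotated, 8 upstream and 13 downstream. Of these, 9 lay beside clustered protocadherin genes, 5 of them upstream. By group, control had 2 such calls, 5 Gy x2 had 6 and 5 Gy x4 had 14. Cdhr3, which had no circle in an exon or intron, had 1 on each side.

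The authors list 157 large circles apart as ecDNA, and 5 of them include a family gene, all with the label lconf. The circle with Cdh2 spans 7.89 Mb of chromosome 18 with 39 genes and had 4 and 17 supporting reads in 5 Gy x4 replicates 2 and 3. The circle with Cdh13 spans 4.73 Mb with 42 genes and had 8 reads in control replicate 3 and 94 in 5 Gy x4 replicate 4. Cdh15 lies in 2 overlapping entries of 4.53 and 9.07 Mb, and Cdh23 in 1 of 2.64 Mb found in control replicates 3 and 4.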
